A study of Homo sapiens with 18 samples.

Results

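The genes described here are 33 members of the NRF2 antioxidant programme and of the pentose phosphate pathway, among 61552 genes of a count table. They were chosen by gene symbol for their known roles, but with earlier results of these data known. They comprise a group listed as regulators, enzymes of glutathione and thioredoxin metabolism, suppliers of NADPH, aldo-keto reductases, detoxification enzymes and exporters. The group of regulators holds NFE2L2, KEAP1, SQSTM1 and OSGIN1. All 33 symbols were found, and 31 of them were among the 19038 genes with enough counts to test.

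NRF2, the product of NFE2L2, is a transcription factor that KEAP1 holds for degradation until oxidants or electrophiles modify KEAP1. It then binds antioxidant response elements in promoters and drives genes that make glutathione, reduce peroxides and quinones, supply NADPH and export conjugates. In colorectal cells these enzymes meet dietary electrophiles, bile acids and drugs. Much of the control of NRF2 acts on the protein, so the RNA of NFE2L2 need not follow its activity.

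RNA was sequenced from HCT116, a human colorectal carcinoma cell line, carrying knock-ins of IκBα, the NF-κB inhibitor encoded by NFKBIA. The N108 line has an IκBα mutant named for residue 108, the M3 line has alanine in place of residues 84, 85 and 86, and the WT line has a knock-in of wild-type IκBα. All 3 lines thus went through the knock-in, and each was sequenced both with human TNFα (0.1 µg/mL, for 40 min) and untreated, with 3 libraries in each of the 6 groups (18 in all). The labels name 1 line per genotype, so a mutation and its clone cannot be told apart, and they do not say that replicates were separate cultures, so p-values measure the spread between libraries, which may be technical.

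Library totals lay between 49021907 and 76947190 counts. NFKBIA itself averaged 30.3 ± 1.82 CPM (counts scaled by library size) in untreated N108 cells, 77.9 ± 1.17 CPM in untreated M3 cells and 91.6 ± 4.57 CPM in untreated WT cells (SD, n = 3 each). With TNF it rose by 3.19 on the log2 scale in N108, 3.63 in M3 and 3.05 in WT. Each of 8 epithelial markers exceeded 1 CPM in every library, but their summed level differed with genotype, at 5157 to 5698 CPM in N108, 4106 to 4767 CPM in M3 and 6685 to 7460 CPM in WT over both treatments. The sum of 5 leukocyte markers was 0.114 to 0.185 CPM in N108, 0.242 to 0.526 CPM in M3 and 2.66 to 4.12 CPM in WT, where only LYZ exceeded 1 CPM and PTPRC, the defining marker, stayed at or below 0.016 CPM. Of 4 fibroblast markers DCN was at 0 and only COL1A1 exceeded 1 CPM, and they summed to 26.5 to 36.5 CPM in N108, 28.4 to 34.3 CPM in M3 and 15.4 to 23.0 CPM in WT. The sum of 3 endothelial markers was 1.16 to 1.75 CPM in N108, 0.543 to 1.00 CPM in M3 and 1.14 to 1.41 CPM in WT. The part of these shifts in the differences between mutants and WT was not tested. Within their groups, some libraries stood apart by a trend with the GC content of transcripts: its Spearman correlation with the deviation from the group mean was -0.52 and 0.45 in replicates 3 and 2 of N108 with TNF, 0.46 in replicate 3 of untreated M3 and -0.39 in replicate 2 of untreated N108. Where removing this trend made or ended a call, its value is given beside the result. In bulk RNA, fewer cells expressing a gene and less RNA per cell cannot be told apart.

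Promoter windows from RefSeq (GRCh38.p14; 250 bases before to 50 after the start site) were found for 26 members. They were searched on both strands for TGACNNNGC, the core of the antioxidant response element. The core stood in a window of 10 of these 26 members (38.5%), against 16.1% of all 27305 genes with a window. Counted by window, the shares were 28.2% of 39 and 13.3% of 35116. Members were picked as genes of the NRF2 programme, which acts through this element, so the excess is a description only. A match is a run of letters and not a measured site. Stretches from 5 of these 10 members are shown, picked for their differing directions in the data below. Whether a match bears on direction was not tested. Capitals mark each match, which reads GCNNNGTCA where it lies on the opposite strand, and each stretch is written on the strand of its gene.
KEAP1 (chr19:10502772-10502865, minus strand): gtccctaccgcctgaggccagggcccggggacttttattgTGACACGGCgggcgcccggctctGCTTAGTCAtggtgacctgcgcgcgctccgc
GCLM (chr1:93909431-93909504, minus strand): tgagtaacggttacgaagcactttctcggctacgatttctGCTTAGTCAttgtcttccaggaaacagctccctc
ME1 (chr6:83431140-83431228, minus strand): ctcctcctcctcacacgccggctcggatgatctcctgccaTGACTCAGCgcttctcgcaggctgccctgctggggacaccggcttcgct
EPHX1 (chr1:225825236-225825324, plus strand): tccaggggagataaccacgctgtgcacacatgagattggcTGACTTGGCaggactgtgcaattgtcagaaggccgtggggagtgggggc
TXNRD1 (chr12:104215640-104215728, plus strand): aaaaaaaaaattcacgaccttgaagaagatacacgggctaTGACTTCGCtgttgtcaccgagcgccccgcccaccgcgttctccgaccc
The ME1 match overlaps TGANTCA, the element bound by AP-1. KEAP1 and GCLM were lower in N108 cells, ME1 and EPHX1 were higher in both mutants, and TXNRD1, when untreated, passed the test in neither mutant (but in N108 with the GC trend removed).

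Levels of the members spanned a wide range. On a scale per length of exon (TPM, counts scaled by exon length and library total), PRDX1, a peroxiredoxin that reduces peroxides, had the highest level in untreated WT cells, at 2186 ± 56.4 TPM (SD, n = 3). GSTP1, a glutathione S-transferase, followed at 756 ± 37.3 TPM and thioredoxin (TXN) at 544 ± 15.5 TPM. The lipid peroxide reductase GPX4 at 493 ± 21.5 TPM and the quinone reductase NQO1 at 470 ± 16.5 TPM were neighbours whose libraries overlapped. KEAP1 stood at 131 ± 6.03 TPM and NFE2L2 at 92.6 ± 2.60 TPM. At the other end, AKR1C3 stood at 1.85 ± 0.154 TPM, and GPX2, AKR1B10, AKR1C1, AKR1C2 and CBR1 all stood below it, down to 0.0248 ± 0.0174 TPM for AKR1C2 and 0 for CBR1. The upper end thus holds members of the thioredoxin, glutathione and pentose phosphate arms, and the lower end most of the aldo-keto reductases.

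**Figure D1:**
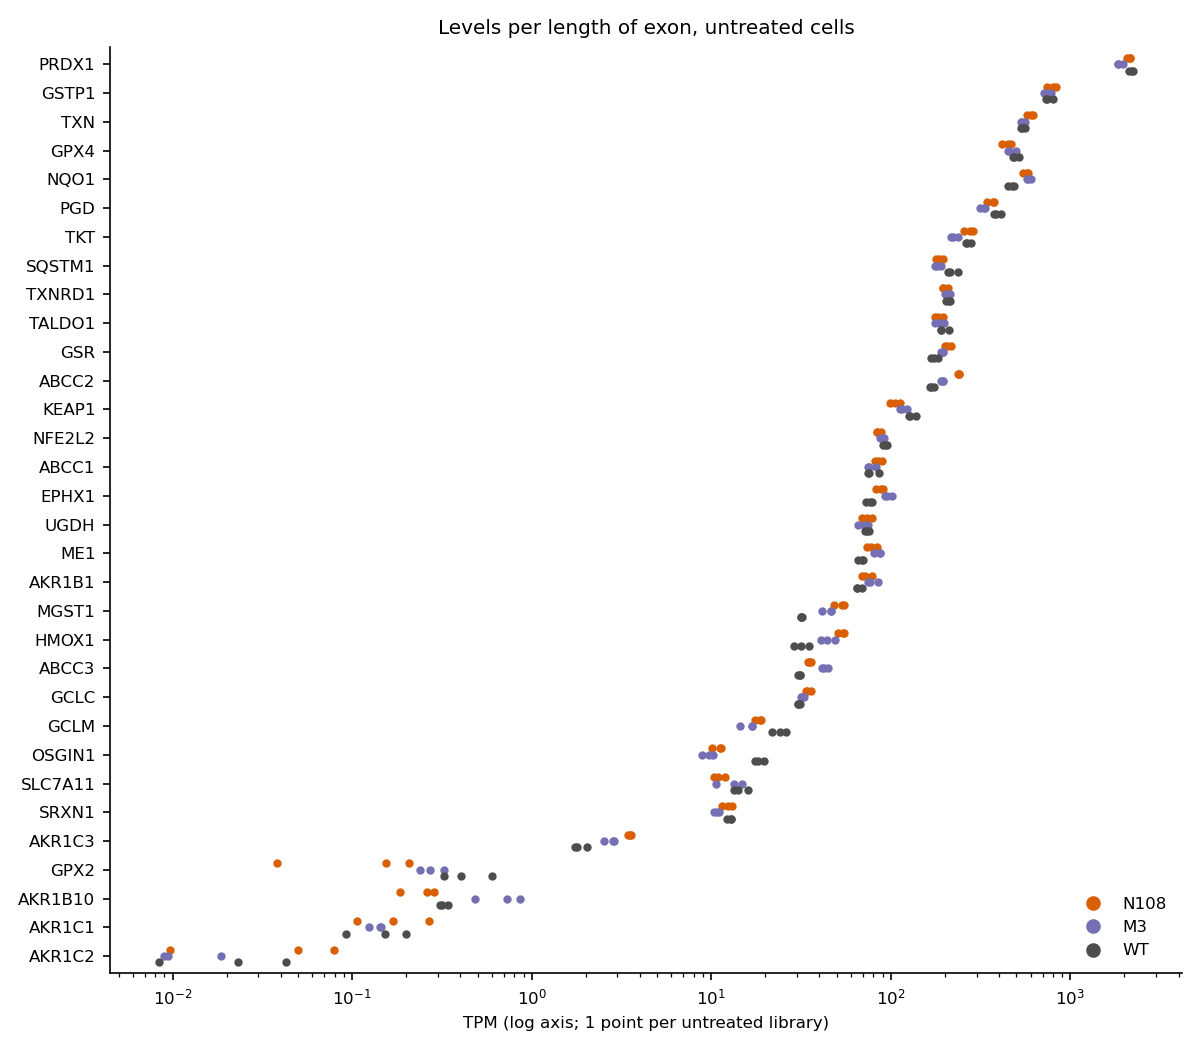
Level of each member in TPM, on a log axis, with 1 point per untreated library and colours for N108, M3 and WT; CBR1, at 0 in nearly every library, is left out. Levels run from PRDX1 near 2186 TPM in WT down to AKR1C2, and the lines of cells differ by far less than the genes do.

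In untreated cells, the detoxification and export members were mostly higher in both mutants than in WT, and 3 of the 4 regulators in N108 and 2 of the 4 in M3 were lower. Of the 8 glutathione genes, 4 were lower and 3 higher in N108 (GCLM, SLC7A11, GPX4 and GPX2 against GCLC, GSR and MGST1), and 1 was lower and 2 higher in M3 (GCLM against GSR and MGST1). In N108 cells 12 members were higher than in WT and 7 lower. These 19 are 61.3% of the 31 tested, beside 42.4% of all genes tested (20.9% higher and 21.6% lower). In M3 cells 11 members were higher and 6 lower, or 54.8%, beside 52.9% of all genes (26.1% higher and 26.8% lower). Calls are easier at high counts: at an average of at least 10 CPM, a level chosen after values were seen, 65.4% of 26 members were called in N108 and 57.7% in M3, beside 52.2% and 62.6% of all genes at that level. The share of members called was thus above that of all genes in N108, and close to it or below it in M3. These counts hold GPX2 in N108 and AKR1B10 in M3, which passed the low-count filter only through the line where they are high and so had to differ. The median absolute log2 fold change was 0.21 over the members and 0.21 over all genes in N108, and 0.21 and 0.28 in M3. What follows describes which genes these were.

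**Figure D2:**
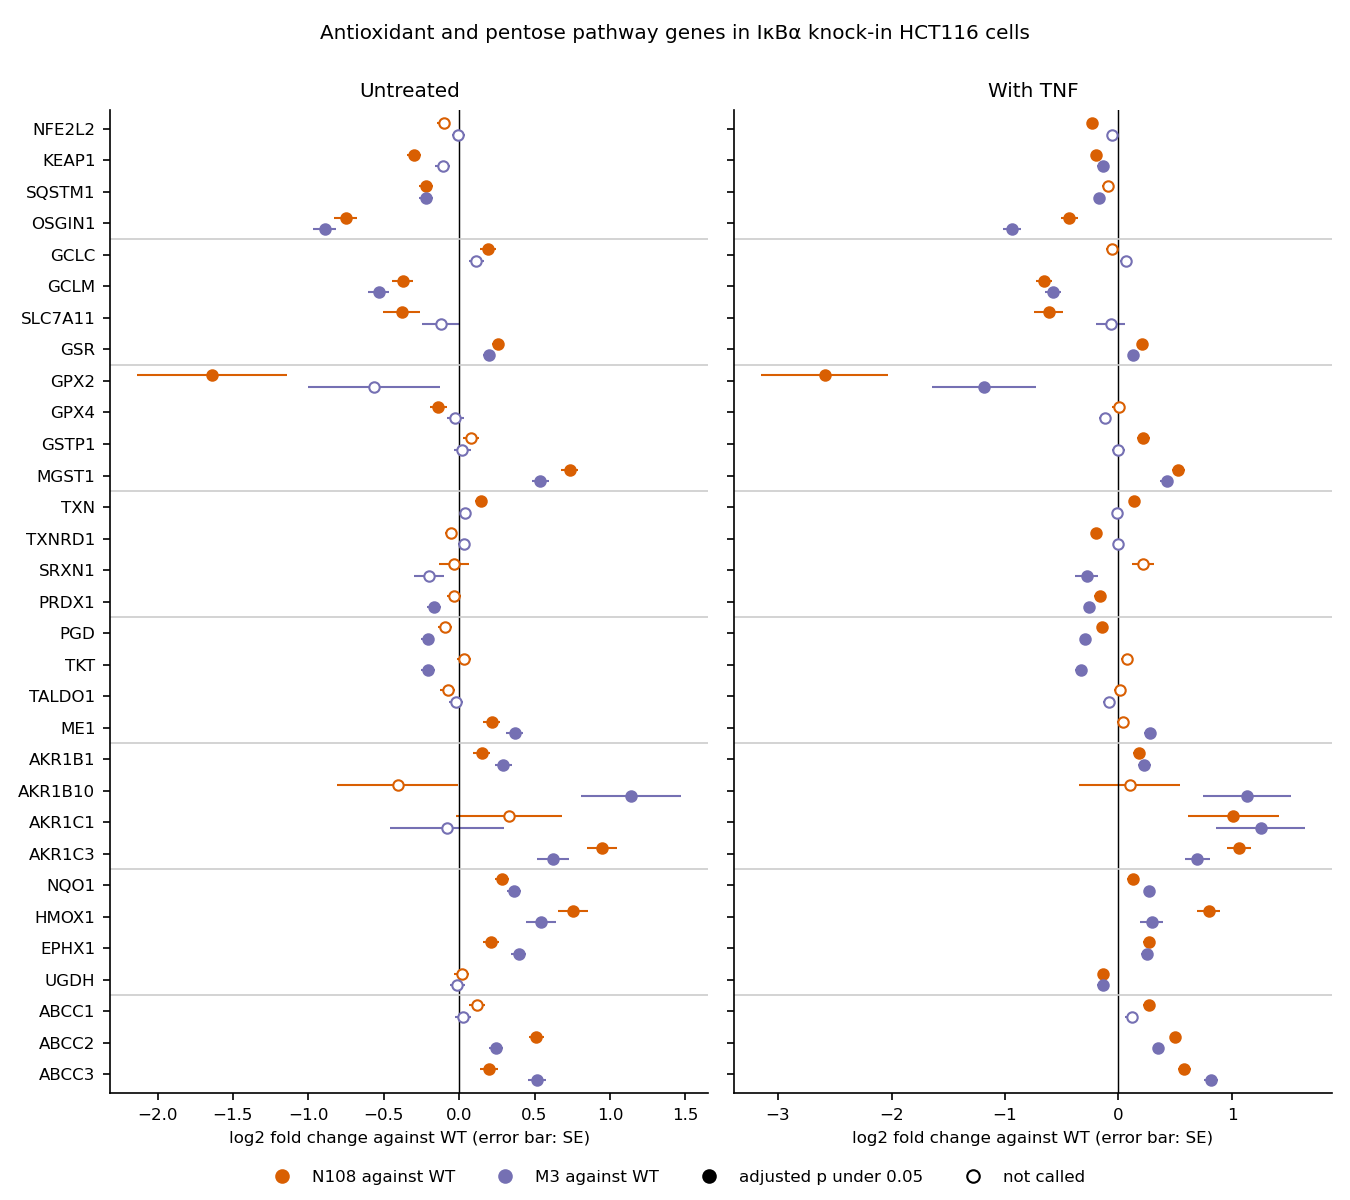
Log2 fold change of each tested member in N108 and M3 against WT, untreated on the left and with TNF on the right; points are estimates, bars are SE, filled points have an adjusted p under 0.05, and lines part the roles. AKR1C3, MGST1, HMOX1, NQO1 and the exporters lie right of 0 in both mutants, while OSGIN1 and GCLM lie left of it; the axes differ in range.

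Among the 4 genes grouped as regulators, none was higher in either mutant. NFE2L2 (GRCh38 chromosome 2, 177227595 to 177392697, minus strand) had 143, 141 and 144 CPM in untreated N108 cells, 154, 154 and 150 CPM in M3 cells, and 159, 153 and 148 CPM in WT cells. All N108 libraries lay below the WT ones, but the difference of -0.10 ± 0.043 (log2, SE) missed the threshold (adjusted p = 0.054), and M3 overlapped WT. Without the GC trend the N108 difference was -0.15 (adjusted p = 0.00056), and without untreated WT replicate 3 it was -0.13 (adjusted p = 0.036). Other annotated genes overlap 20.9% of the exon length of NFE2L2 (17.6% on its strand). KEAP1 (chromosome 19, 10486120 to 10503741, minus strand), the adaptor that directs NRF2 to degradation, had 114, 105 and 113 CPM in N108 cells, 123, 122 and 134 CPM in M3 cells, and 134, 135 and 139 CPM in WT cells. The N108 and WT groups were clear of each other, and KEAP1 fell by 0.30 ± 0.049 in N108 (adjusted p = 1.4e-05). M3 lay between them, at -0.11 ± 0.049 against WT (adjusted p = 0.061). It was called lower in M3 without untreated M3 replicate 3, a library with a GC trend (-0.16, adjusted p = 0.012), and, at -0.11 in each, in DESeq2 and in a fit of only the compared groups (adjusted p = 0.049 in each). N108 was lower than M3 as well (-0.19 ± 0.049, adjusted p = 0.0039).

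SQSTM1 encodes p62, which binds KEAP1 and carries it to autophagy. It averaged 398 ± 12.7 CPM in N108, 398 ± 16.9 CPM in M3 and 463 ± 16.6 CPM in WT, lower by the same 0.22 on the log2 scale in both mutants (adjusted p = 0.00046 and 0.00035). Of its 50-base stretches 50.7% also occur in other genes, most in MRNIP on the other strand, and whether counting used strand is not given. OSGIN1, an oxidative stress-induced growth inhibitor, had 10.5, 9.90 and 11.1 CPM in N108 cells, 9.71, 8.63 and 10.3 CPM in M3 cells, and 17.5, 17.2 and 18.3 CPM in WT cells. Every mutant library lay well below every WT library. This was the largest decrease among members above 1 CPM in both mutants, -0.75 ± 0.075 in N108 (adjusted p = 4.2e-09) and -0.89 ± 0.076 in M3 (adjusted p = 1.1e-10).

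The 2 subunits of glutamate-cysteine ligase, which makes the first step of glutathione synthesis, moved apart in untreated N108 cells. The modifier subunit GCLM (chromosome 1, 93885205 to 93909456, minus strand) had 27.7, 28.5 and 27.2 CPM in N108 cells, 26.5, 25.6 and 22.6 CPM in M3 cells, and 39.3, 33.4 and 35.2 CPM in WT cells. No mutant library reached the lowest WT library, and GCLM fell by 0.37 ± 0.068 in N108 (adjusted p = 5.6e-05) and by 0.53 ± 0.069 in M3 (adjusted p = 2.2e-07). The catalytic subunit GCLC averaged 83.8 ± 0.269 CPM in N108, 79.5 ± 0.569 CPM in M3 and 73.4 ± 1.22 CPM in WT. It was higher in N108 (0.19 ± 0.052, adjusted p = 0.0041). The M3 difference of 0.12 missed the threshold (adjusted p = 0.065) but passed under a filter of 1 CPM and in a fit of only the compared groups (adjusted p = 0.041 and 0.029). With TNF, GCLC was called in neither mutant, at 75.8 ± 7.18 CPM in N108, 82.8 ± 3.21 CPM in M3 and 79.2 ± 2.46 CPM in WT.

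SLC7A11, the cystine importer, averaged 29.7 ± 1.31 CPM in N108, 35.5 ± 5.44 CPM in M3 and 38.6 ± 3.79 CPM in WT. It was lower in N108 (-0.38 ± 0.12, adjusted p = 0.022). That call was lost without untreated N108 replicate 2 or 3 (-0.38 and -0.35) or untreated WT replicate 1 (-0.29), with adjusted p of 0.057, 0.069 and 0.094. With no low-count filter it was lost as well (-0.38, adjusted p = 0.055). M3 overlapped WT, but was called lower with the GC trend removed together with a replicate block (-0.18, adjusted p = 0.034). GSR, which restores reduced glutathione with NADPH, averaged 217 ± 4.16 CPM in N108, 208 ± 3.27 CPM in M3 and 182 ± 2.35 CPM in WT. It was higher in both mutants, by 0.26 ± 0.040 in N108 and 0.20 ± 0.040 in M3 (adjusted p = 5.9e-06 and 0.00015).

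Of the 4 glutathione-using enzymes, MGST1 changed most among those well above the count limit. MGST1 (chromosome 12, 16347142 to 16609259, plus strand), a microsomal transferase that conjugates glutathione and reduces lipid peroxides, had 111, 113 and 103 CPM in N108 cells, 99.5, 97.1 and 88.5 CPM in M3 cells, and 66.6, 66.3 and 63.3 CPM in WT cells. Both mutants were clear of WT, with log2 fold changes of 0.73 ± 0.056 in N108 (adjusted p = 2.5e-11) and 0.54 ± 0.057 in M3 (adjusted p = 5.6e-09). GPX4 averaged 250 ± 12.7 CPM in N108, 270 ± 17.0 CPM in M3 and 275 ± 5.84 CPM in WT. It was called lower in N108 by 0.14 on the log2 scale (-0.14 ± 0.056, adjusted p = 0.045). The call was lost on removal of the GC trend (-0.05, adjusted p = 0.29) and on leaving out 5 of the 6 libraries one at a time (-0.16 to -0.10, adjusted p = 0.055 to 0.23; untreated N108 replicates 1 and 2 and each untreated WT replicate). GSTP1 passed the test in neither mutant, but was called higher in both once the GC trend was removed (0.17 in N108 and 0.11 in M3).

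GPX2, a gut epithelial glutathione peroxidase, was near the limit of counting. Its reads numbered 5, 5 and 1 in the N108 libraries, 6, 7 and 8 in the M3 libraries, and 13, 9 and 12 in the WT libraries. It passed the low-count filter only through WT, so it could pass only if it was higher there, and its fold change in N108 (-1.64 ± 0.50, adjusted p = 0.0091) counts for little. Without untreated N108 replicate 3 it was -1.25 (adjusted p = 0.054).

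In the thioredoxin system, differences were small. TXN averaged 190 ± 2.69 CPM in N108, 177 ± 7.24 CPM in M3 and 172 ± 0.471 CPM in WT, higher in N108 by 0.15 ± 0.040 (adjusted p = 0.0041) and by 0.10 without the GC trend. PRDX1 averaged 900 ± 26.9 CPM in N108, 820 ± 37.4 CPM in M3 and 920 ± 7.26 CPM in WT, lower in M3 by 0.17 on the log2 scale (-0.17 ± 0.047, adjusted p = 0.0038). PRDX1 shares 28.6% of its 50-base stretches with other genes, most with MMACHC on the other strand. TXNRD1, the selenoenzyme that reduces thioredoxin, passed the test in neither mutant at 373 ± 3.27 CPM in N108, 397 ± 6.33 CPM in M3 and 388 ± 6.75 CPM in WT. With the GC trend removed it was called lower in N108 (-0.11, adjusted p = 0.0067, against -0.06 with the trend). SRXN1, which repairs peroxiredoxins, passed in neither, at 9.26 ± 0.435, 8.24 ± 0.276 and 9.46 ± 0.230 CPM in the same order, though its M3 value of -0.20 (adjusted p = 0.091) passed in a fit of only the compared groups and with no low-count filter (adjusted p = 0.017 and 0.039). SRXN1 lies for 85.0% of its exon length under another annotated gene on its strand, so its counts are uncertain.

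The NADPH suppliers split between the mutants. The pentose phosphate enzymes PGD, which yields NADPH, and TKT, which rearranges sugars in the non-oxidative branch, were lower than WT in M3 and did not pass in N108. PGD averaged 300.4 ± 12.5 CPM in N108, 277 ± 9.81 CPM in M3 and 320.2 ± 5.18 CPM in WT. In N108 it stood at -0.09 (adjusted p = 0.10; 0.038 in a fit of only the compared groups). TKT had 733, 683 and 749 CPM in N108 cells, 592, 592 and 652 CPM in M3 cells, and 702, 709 and 709 CPM in WT cells. All M3 libraries of TKT lay below all others, and N108 spread around WT. Both genes fell by 0.21 on the log2 scale in M3 (adjusted p = 0.0003 for PGD and 0.00053 for TKT). TALDO1, the other non-oxidative enzyme, passed in neither mutant.

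ME1, which makes NADPH from malate, went the other way. It averaged 73.7 ± 2.76 CPM in N108, 82.0 ± 3.01 CPM in M3 and 63.5 ± 1.20 CPM in WT, higher by 0.22 ± 0.055 in N108 (adjusted p = 0.0021) and 0.37 ± 0.055 in M3 (adjusted p = 2.2e-06). Its groups did not overlap with WT in either mutant.

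Aldo-keto reductases, which reduce carbonyls with NADPH, were higher or uncalled. AKR1C3 (chromosome 10, 5035354 to 5107686, plus strand), which also reduces steroids and prostaglandins, had 4.36, 4.50 and 4.47 CPM in N108 cells, 3.29, 3.62 and 3.75 CPM in M3 cells, and 2.19, 2.30 and 2.46 CPM in WT cells. The 3 lines did not overlap, and the log2 fold change was 0.95 ± 0.10 in N108 (adjusted p = 1.5e-08) and 0.62 ± 0.11 in M3 (adjusted p = 1.3e-05). AKR1C3 shares 12.1% of its 50-base stretches with other genes, most with AKR1C2, and AKR1C2 shares 52.2%, most with AKR1C1, so reads may have been split or lost among them. AKR1B1, aldose reductase, averaged 74.4 ± 3.21 CPM in N108, 82.2 ± 6.44 CPM in M3 and 67.1 ± 0.718 CPM in WT. It was higher by 0.29 ± 0.055 in M3 (adjusted p = 5.9e-05) and by 0.15 ± 0.055 in N108 (adjusted p = 0.03), where the call was lost without untreated N108 replicate 1 or 3 or any untreated WT replicate (0.12 to 0.16, adjusted p = 0.052 to 0.14).

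The remaining reductases were at trace level. AKR1B10 had 8, 7 and 8 reads in N108 libraries, 14, 26 and 21 in M3 libraries, and 12, 10 and 8 in WT libraries. Every M3 library exceeded the others, at a log2 fold change of 1.14 ± 0.33 (adjusted p = 0.0052), but the gene passed the filter only through M3, so it had to be higher there. It shares 17.7% of its 50-base stretches with other genes, most with AKR1B15. AKR1C1 had 15 to 51 reads per untreated library with all groups overlapping, and AKR1C2, at 1 to 9 reads, did not reach the test.

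NQO1, HMOX1 and EPHX1, enzymes of quinone, haem and epoxide breakdown, were each higher in both mutants. NQO1 (chromosome 16, 69706996 to 69726951, minus strand) had 511, 502 and 534 CPM in N108 cells, 543, 525 and 565 CPM in M3 cells, and 430, 418 and 422 CPM in WT cells. Mutant and WT libraries were clear of each other, at 0.29 ± 0.045 in N108 (adjusted p = 7.8e-06) and 0.36 ± 0.045 in M3 (adjusted p = 1.1e-07). NQO1 shares 18.1% of its 50-base stretches with other genes, and 17.7% of its exon length is overlapped by a gene on the other strand. HMOX1 (chromosome 22, 35380361 to 35394214, plus strand), the inducible haem oxygenase, had 35.6, 34.3 and 37.0 CPM in N108 cells, 28.4, 29.7 and 34.0 CPM in M3 cells, and 21.1, 19.8 and 22.4 CPM in WT cells. Again no mutant library fell among the WT ones, and the log2 fold change was 0.76 ± 0.099 in N108 (adjusted p = 5.1e-06) and 0.54 ± 0.10 in M3 (adjusted p = 0.00015).

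EPHX1, microsomal epoxide hydrolase, averaged 60.9 ± 2.22 CPM in N108, 69.2 ± 3.69 CPM in M3 and 52.6 ± 1.73 CPM in WT, at 0.21 ± 0.053 and 0.39 ± 0.053 (adjusted p = 0.0019 and 3.8e-07). UGDH, which makes the sugar donor for glucuronidation, passed in neither mutant, at 83.5 ± 2.94, 81.6 ± 4.06 and 82.4 ± 2.34 CPM in the same order. CBR1, a carbonyl reductase, was at 0 or 1 read in each of the 18 libraries and was not tested. CBR1 is overlapped by an antisense gene over 18.9% of its exons.

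Of the 3 exporters of conjugates, ABCC2 and ABCC3 were higher in both mutants. ABCC2 had 506, 521 and 539 CPM in N108 cells, 433, 429 and 439 CPM in M3 cells, and 363, 368 and 366 CPM in WT cells. The 3 lines formed 3 separate steps, with log2 fold changes of 0.51 ± 0.047 in N108 (adjusted p = 9.2e-10) and 0.25 ± 0.047 in M3 (adjusted p = 7.9e-05). ABCC3 (chromosome 17, 50634777 to 50692252, plus strand) had 93.2, 94.9 and 94.8 CPM in N108 cells, 118, 120 and 115 CPM in M3 cells, and 83.5, 83.2 and 80.2 CPM in WT cells. Here M3 was the highest of the lines, at 0.52 ± 0.060 (adjusted p = 3.6e-08), with N108 at 0.20 ± 0.060 (adjusted p = 0.0094). ABCC1 passed in neither mutant, at 0.12 ± 0.054 in N108 (adjusted p = 0.073) and 0.03 ± 0.054 in M3. In N108 it was called higher with the GC trend removed (0.15, adjusted p = 0.015), without untreated WT replicate 3 (0.16, adjusted p = 0.030) and in a fit of only the compared groups (0.12, adjusted p = 0.013).

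**Figure D3:**
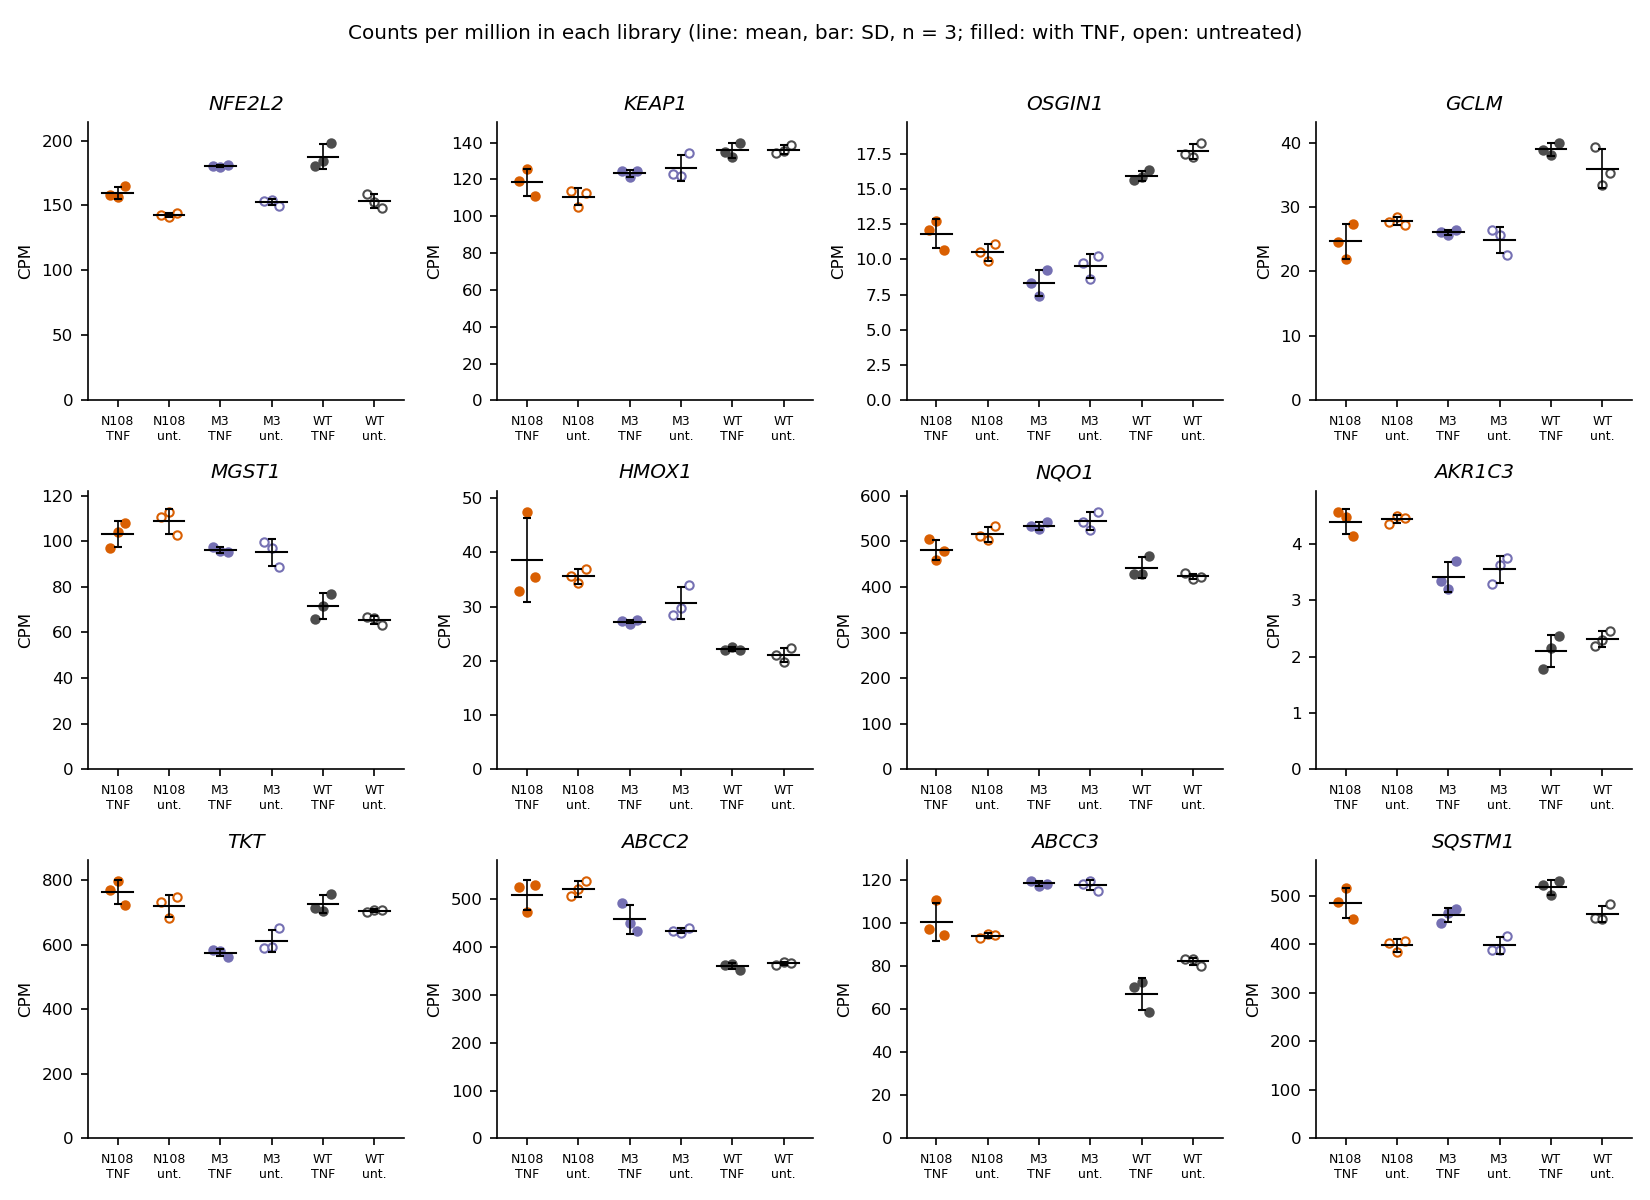
CPM of 12 members in each library, with TNF (filled) and untreated (open), for N108, M3 and WT from left to right; lines are means and bars SD (n = 3), and each vertical axis starts at 0. MGST1, HMOX1, NQO1, AKR1C3, ABCC2 and ABCC3 stand above WT by their means and OSGIN1 and GCLM below WT in both mutants, while TKT is low in M3.

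The mutants were also tested against each other, which a pass in one and a miss in the other cannot settle. Untreated, 7 members were higher in N108 than in M3 and 6 lower, or 41.9% of those tested, beside 31.5% of all genes (16.4% higher and 15% lower). TKT (0.24 ± 0.047, adjusted p = 0.00029) and ABCC2 (0.27 ± 0.047, adjusted p = 6.9e-05) were higher in N108, with AKR1C3 at 0.32, MGST1 at 0.19, PRDX1 at 0.13, PGD at 0.12 and TXN at 0.11. AKR1B10 (-1.55 ± 0.35, adjusted p = 0.0011), ABCC3 (-0.32 ± 0.060, adjusted p = 0.00014) and KEAP1 were lower, with EPHX1 at -0.18, ME1 at -0.15 and AKR1B1 at -0.14. Of these 13, only TKT, ABCC2, ABCC3, KEAP1 and AKR1B10 stayed called under every alternative tried, and AKR1B10 had to be higher in M3, through which alone it passed the filter. AKR1B1 was lowered most by a single omission, to -0.08 without untreated M3 replicate 3 (adjusted p = 0.32). The count was 8 without untreated N108 replicate 2 or 3. With the GC trend removed 19 members were called, with GCLM (0.16) and HMOX1 (0.21) added as higher in N108 than in M3, and GPX4 (-0.11), NFE2L2 (-0.10), SLC7A11 (-0.25) and TXNRD1 (-0.09) as lower.

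After TNF, 13 members were higher and 10 lower in N108 than in WT (74.2% of those tested, beside 46.7% of all genes, 23.0% higher and 23.6% lower). In M3 12 were higher and 10 lower (71.0%, beside 54.7%, 26.9% higher and 27.8% lower). Shares of all genes at 10 CPM or more were not counted with TNF, so the part of expression level in this excess was not tested. These comparisons use other libraries than the untreated ones. Of the 19 members called in untreated N108 cells, 15 were called in the same direction with TNF (78.9% of the untreated calls and 65.2% of those with TNF), 10 of them higher and 5 lower. Of the 17 called in untreated M3 cells, all 17 were called again (all of the untreated calls and 77.3% of those with TNF), 11 higher and 6 lower. GPX2 in N108 and AKR1B10 in M3 are in these counts, and their repeats support nothing, since each passed the filter only through the line where it is high. The libraries of a genotype share its line, so this repeats the line and not the mutation. The share of all called genes that repeated was not counted, so the repeats are not a result about these members.

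The same leading genes reappeared. AKR1C3 stood at 1.06 ± 0.11 in N108 and 0.69 ± 0.11 in M3 (adjusted p = 4.6e-09 and 5.3e-06), and ABCC3 at 0.58 ± 0.061 and 0.82 ± 0.061 (adjusted p = 9.8e-09 and 6.7e-12). HMOX1 had 32.9, 47.5 and 35.4 CPM in N108 with TNF, 27.4, 26.8 and 27.5 CPM in M3 with TNF, and 22, 22.6 and 22 CPM in WT with TNF. Replicate 2 of N108 was the highest of all libraries, and the N108 value of 0.80 ± 0.10 (adjusted p = 2.9e-06) was 0.62 without it. In M3, HMOX1 was at 0.29 ± 0.10 (adjusted p = 0.02), which was lost without WT TNF replicate 1 or 3 (0.29 in each, adjusted p = 0.051 and 0.050).

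GCLM was lower by 0.66 on the log2 scale in N108 (-0.66 ± 0.069, adjusted p = 1.0e-08) and 0.58 in M3 (-0.58 ± 0.069, adjusted p = 5.5e-08). OSGIN1 stood at -0.43 ± 0.076 in N108 and -0.94 ± 0.079 in M3 (adjusted p = 3.5e-05 and 8.0e-11). NQO1 was higher in M3 (0.27 ± 0.045, adjusted p = 9.6e-06), but its N108 value of 0.12 ± 0.045 (adjusted p = 0.025) was lost without N108 TNF replicate 1 (0.09, adjusted p = 0.15) or WT TNF replicate 1 or 2 (0.10 in each, adjusted p = 0.11). NFE2L2 and TXNRD1, which had missed in untreated N108 cells, passed there with TNF, at -0.23 ± 0.043 and -0.20 ± 0.040 (adjusted p = 6e-05 and 0.00014). In M3 NFE2L2 was at -0.06 (adjusted p = 0.25), and at -0.11 with the GC trend removed (adjusted p = 0.0087).

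Other members were called with TNF as well. MGST1 (0.53 in N108 and 0.43 in M3), ABCC2 (0.50 and 0.35), EPHX1 (0.27 and 0.25) and GSR (0.20 and 0.13) were higher in both mutants, where GSR in M3 was 0.10 without WT TNF replicate 2 (adjusted p = 0.057) and 0.08 with the GC trend removed (adjusted p = 0.038). ABCC1 at 0.27 and GSTP1 at 0.22 were higher in N108 (adjusted p = 0.0002 and 0.0016), and ME1 at 0.28 in M3 (adjusted p = 0.00011). With the GC trend removed GSTP1 in N108 was 0.14 (adjusted p = 0.00097), and calls were added for ABCC1 in M3 (0.14, adjusted p = 0.024, against 0.12 with the trend) and ME1 in N108 (0.14, adjusted p = 0.0052, against 0.04 with the trend). TKT was lower in M3 again, at -0.33 ± 0.047 (adjusted p = 9.5e-07), with N108 at 0.07 (adjusted p = 0.21).

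PGD stood at -0.15 in N108 and -0.29 in M3, and PRDX1 at -0.16 and -0.26. Both N108 calls were lost without WT TNF replicate 3 (-0.11 in each, adjusted p = 0.079 for PGD and 0.062 for PRDX1). SQSTM1 was lower in M3 at -0.17 (adjusted p = 0.004). In N108 it stood at -0.09 (adjusted p = 0.11), and was called lower with the GC trend removed (-0.16, adjusted p = 0.00012) and without N108 TNF replicate 2 (-0.14, adjusted p = 0.019). SLC7A11 was lower in N108 at -0.62 ± 0.13 (adjusted p = 0.00096). KEAP1 stood at -0.20 in N108 (adjusted p = 0.0018) and at -0.14 in M3 (adjusted p = 0.02), where it was -0.07 with the GC trend removed (adjusted p = 0.055), -0.13 without M3 TNF replicate 2 and -0.11 without WT TNF replicate 3 (adjusted p = 0.069 and 0.081). SRXN1 was called lower in M3 at -0.28 (adjusted p = 0.023), which was lost without M3 TNF replicate 2 or 3 or WT TNF replicate 3 (-0.26, -0.25 and -0.19, adjusted p = 0.066 to 0.15). In N108 SRXN1 stood at 0.21 (adjusted p = 0.077), and was called higher without N108 TNF replicate 1 or 3 or WT TNF replicate 3 (0.28 to 0.31, adjusted p = 0.011 to 0.038). GPX2 (-2.59 in N108 and -1.18 in M3) and AKR1B10 (1.13 in M3) were again at trace level, and both M3 calls were lost on leaving out 1 of several libraries (adjusted p of up to 0.10 for GPX2 and 0.061 for AKR1B10).

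AKR1C1 was called higher in both mutants with TNF, at 33, 26 and 27 reads in N108, 44, 24 and 31 in M3, and 24, 8 and 7 in WT. Its value of 1.01 in N108 ran from 0.66 without WT TNF replicate 3 to 1.86 without WT TNF replicate 1, and in M3 the value of 1.25 was 2.10 without WT TNF replicate 1. The N108 call was lost on leaving out 1 library, whichever N108 TNF replicate or WT TNF replicate 2 or 3 (adjusted p of up to 0.20), and the M3 call without WT TNF replicate 2 or 3 (adjusted p of up to 0.062). The WT libraries therefore set the size of this difference. In all, 17 of the 23 calls in N108 and 14 of the 22 in M3 held under every alternative tried, with GPX2 among the first. UGDH, lower in both mutants at -0.13 in N108 and -0.14 in M3, was among those lost. In N108 it was -0.05 with the GC trend removed (adjusted p = 0.26), -0.08 without N108 TNF replicate 2 and -0.11 without WT TNF replicate 3 (adjusted p = 0.17 and 0.10), and in M3 -0.13 to -0.12 without M3 TNF replicate 1 or 3 or WT TNF replicate 3 (adjusted p = 0.053 to 0.083).

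At 40 min, TNF itself moved few members. In N108 cells 1 member of 31 was called (3.23%, beside 1.2% of all genes), in M3 cells 2 (6.45%, beside 1.38%) and in WT cells 3 (9.68%, beside 5.18%). The members that rose were regulators. NFE2L2 had 158, 156 and 165 CPM with TNF against 143, 141 and 144 CPM untreated in N108, 180, 179 and 181 CPM against 154, 154 and 150 CPM in M3, and 180, 184 and 198 CPM against 159, 153 and 148 CPM in WT. In each line the treated libraries lay above the untreated ones, at 0.16 ± 0.043 in N108 (adjusted p = 0.059), 0.24 ± 0.043 in M3 (adjusted p = 0.00098) and 0.29 ± 0.043 in WT (adjusted p = 4.5e-05). The N108 value passed in DESeq2 and under a filter of 1 CPM (0.16 in each, adjusted p = 0.0096 and 0.041), and with the GC trend removed (0.19, adjusted p = 0.0014).

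SQSTM1 rose in every line. It averaged 485 ± 31.7 CPM with TNF and 398 ± 12.7 CPM untreated in N108, 461 ± 14.8 CPM and 398 ± 16.9 CPM in M3, and 518 ± 15.4 CPM and 463 ± 16.6 CPM in WT. The log2 fold change was 0.29 ± 0.048 in N108 (adjusted p = 0.00042), 0.21 ± 0.048 in M3 (adjusted p = 0.015) and 0.16 ± 0.048 in WT (adjusted p = 0.046). The N108 call held under every alternative. The M3 call was lost without untreated M3 replicate 1 or 2 (0.19 in each) or M3 TNF replicate 2 or 3 (0.21 and 0.19), with adjusted p of 0.078 to 0.11. The WT call was lost without untreated WT replicate 1 or 2 or any WT TNF replicate (0.14 to 0.18, adjusted p = 0.052 to 0.23). The count in N108 was 6 without N108 TNF replicate 3, one of the libraries with a GC trend, with GPX4, GSTP1 and SRXN1 called higher and GCLC and GCLM lower beside SQSTM1.

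ABCC3 was the third member called in WT. It had 70.5, 72.7 and 58.9 CPM with TNF and 83.5, 83.2 and 80.2 CPM untreated, and fell by 0.29 ± 0.061 on the log2 scale (adjusted p = 0.0031). Without WT TNF replicate 3, the lowest library, the value was -0.20 (adjusted p = 0.052), and with that library left out 1 member was called in WT. In N108 ABCC3 had 97.2, 111 and 94.4 CPM with TNF against 93.2, 94.9 and 94.8 CPM untreated, and in M3 120, 117 and 119 CPM against 118, 120 and 115 CPM. Treated and untreated libraries overlapped in both mutants.

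**Figure D4:**
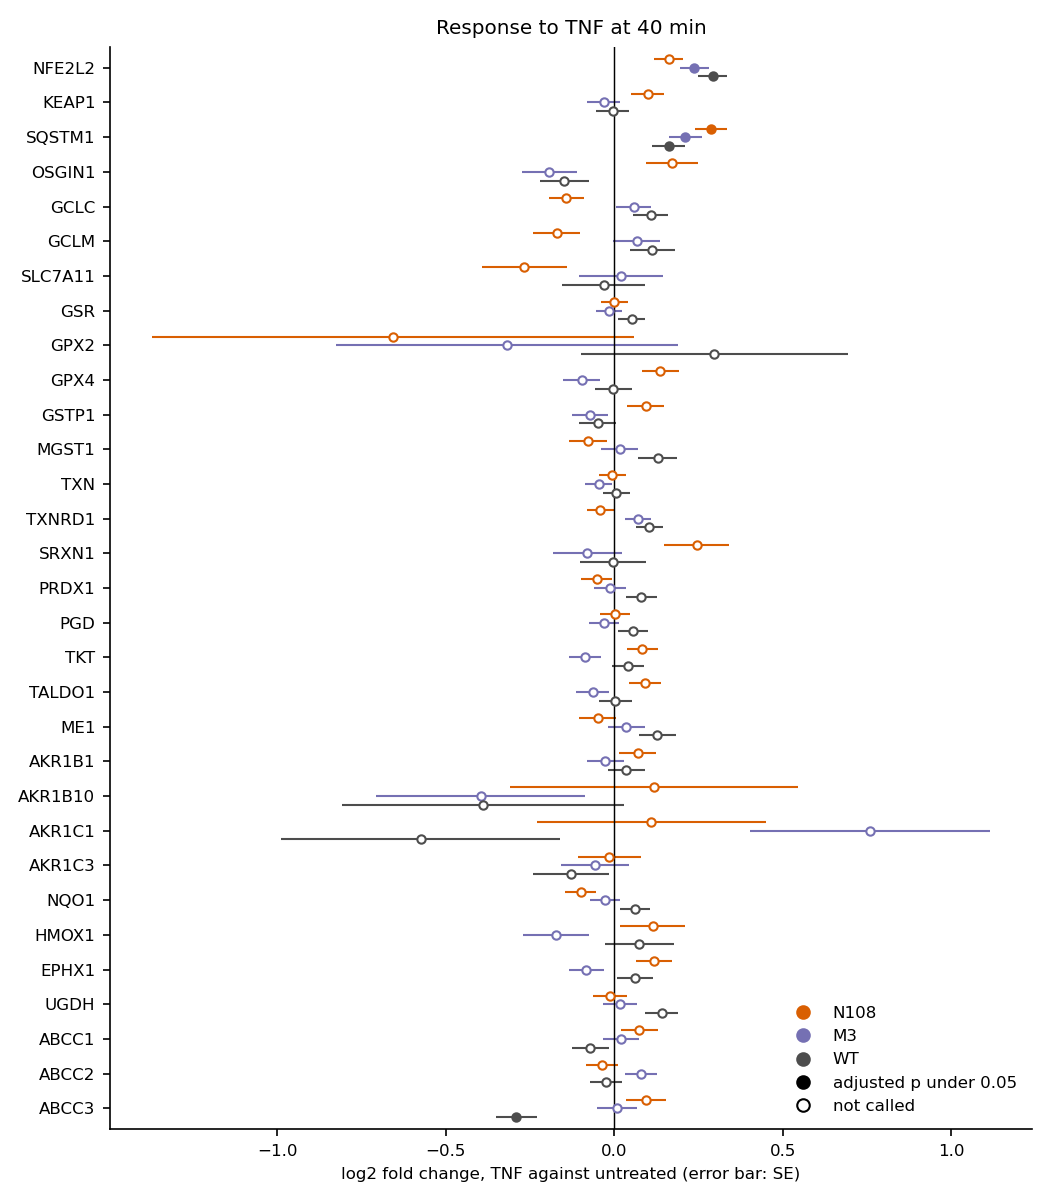
Log2 fold change of each tested member after TNF against untreated, in N108, M3 and WT; points are estimates, bars SE, and filled points have an adjusted p under 0.05. NFE2L2 and SQSTM1 lie right of 0 in all 3 lines, and ABCC3 lies left of 0 in WT at -0.29.

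Whether the response to TNF differed between a mutant and WT was tested directly. For N108, 1 member was called (3.23%, beside 2.62% of all genes), ABCC3, whose response was higher by 0.38 ± 0.085 than in WT (adjusted p = 0.014), or by 0.29 with the GC trend removed (adjusted p = 0.11). GCLC was not called, but was called lower in DESeq2 and with no low-count filter (-0.26 and -0.25, adjusted p = 0.026 and 0.034). The same held without WT TNF replicate 1 (-0.28) or N108 TNF replicate 3 (-0.31). GCLM (-0.28 and -0.37) and OSGIN1 (0.32 and 0.39) were called with no filter and without N108 TNF replicate 3. GPX4, GSTP1 and MGST1 were called only without that replicate. For M3, 0 members were called in edgeR and in DESeq2, beside 0.315% of all genes, and 2 had an unadjusted p under 0.05. ABCC3 stood at 0.30 ± 0.085 there (adjusted p = 0.15), and passed with no low-count filter (0.31, adjusted p = 0.0075) and with the GC trend removed together with the replicate block (0.29, adjusted p = 0.023). For NFE2L2 the interaction was -0.13 ± 0.060 with N108 (adjusted p = 0.21) and -0.05 ± 0.060 with M3 (adjusted p = 0.83).

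A further 110 genes of the same pathways, listed by role, gave the wider picture, and 95 of them were tested. Untreated, 20 were higher and 31 lower in N108 than in WT (53.7%, beside 42.4% of all genes), and 26 higher and 37 lower in M3 (66.3%, beside 52.9%). The median log2 fold change was -0.05 in N108 and -0.06 in M3, beside 0.01 and 0.00 over all genes. The detoxification genes of this list did not lean higher as the members did. Of 22 tested, 6 were higher and 7 lower in N108 (59.1% called), and 7 higher and 8 lower in M3 (68.2%). ABCG2, a drug efflux pump, averaged 41.0 ± 0.475 CPM in N108, 29 ± 0.820 CPM in M3 and 20.4 ± 1.15 CPM in WT, a rise of 1.01 ± 0.050 in N108 and 0.51 ± 0.052 in M3. GSTA4, which conjugates lipid peroxide products, rose by 0.90 in N108 and 1.72 in M3, and the noncoding RNA LUCAT1 by 3.04 and 2.40.

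The glutathione transferases of the mu class went the other way. GSTM4 averaged 17.5 ± 0.745 CPM in N108, 13.7 ± 0.211 CPM in M3 and 32.2 ± 0.488 CPM in WT (-0.88 and -1.23), GSTM2 stood at -1.18 and -1.70, and GSTM1 at -1.66 and -1.38. These are near-identical paralogs whose reads may be divided between them. MSRB3, a methionine sulfoxide reductase, stood at -1.20 in N108 and -1.67 in M3, CHAC1, which degrades glutathione, at -1.20 and -1.11, and ME3, a mitochondrial malic enzyme near the count limit, at -2.18 and -1.05. GGT1, which breaks down extracellular glutathione, fell by 1.85 on the log2 scale in M3 (-1.85 ± 0.31), while its N108 value of -0.41 did not pass (adjusted p = 0.21). Which line carried a low-count gene past the filter was looked at only for the members, and not for these further genes. Nor are the calls of these further genes given over the alternatives.

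After TNF the listed genes that rose in all 3 lines were small MAF proteins, the partners with which NRF2 binds DNA (named after their values were seen). MAFF averaged 34.2 CPM with TNF and 15.1 CPM untreated in N108, 37.6 and 11.3 CPM in M3, and 44.8 and 19.3 CPM in WT. It rose by 1.18 in N108, 1.73 in M3 and 1.21 in WT on the log2 scale, and more in M3 than in WT (0.52, adjusted p = 0.001). MAFG rose by 0.29, 0.28 and 0.19 in N108, M3 and WT. Of the 95 tested, 3 were called in N108 (3.16%, beside 1.2% of all genes), 3 in M3 (3.16%, beside 1.38%) and 7 in WT (7.37%, beside 5.18%), where 4 were higher and 3 lower. MAFK was called higher in N108 and M3 (0.26 and 0.21). In WT, NFE2L3 (0.31) and BACH1 (0.34) were higher, and GSTM2 (-0.74), ABCB6 (-0.36) and OPLAH (-0.34) lower. The response differed between N108 and WT for OPLAH (0.49, adjusted p = 0.0024), NFE2L3 (-0.28, adjusted p = 0.023) and MSRB3 (-0.41, adjusted p = 0.012). They are 3.16% of the 95 tested, beside 2.62% of all genes. These genes were likewise named after their values were seen. Their calls are not given over the alternatives, under which 161 to 2447 of all genes were called for this interaction.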

How the data were processed

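Raw counts per gene were deposited by the authors for 18 libraries of paired-end reads (50 bp per the labels). The submitters' processing notes name STAR 2.7.8 and Trim Galore 0.6.6, with featureCounts (Subread 2.0.1), DESeq2 (1.38.3) and the build hg38. Neither annotation release nor strand setting is given in the sources used here. The authors also deposited a log2 scale table of normalized values, which was checked but not used. Groups and replicate numbers came from the titles of the samples.

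The test was edgeR 4.0.16 (R 4.3.3) on the deposited counts: filterByExpr (minimum count 10), TMM scaling, and 1 robust quasi-likelihood model with a mean per group over all 18 libraries (12 residual degrees of freedom). The p-values are two-sided, adjusted by Benjamini-Hochberg over all 19038 genes tested in each of 10 comparisons, and a call is an adjusted p under 0.05. Standard errors are each log2 fold change, without sign, divided by the root of its F statistic. CPM used TMM-scaled totals, and TPM used exon lengths of GENCODE 29. Shared 50-base stretches and exon overlaps came from GENCODE 29 on GRCh38, and promoters from RefSeq. Libraries of a group differed by more than sampling noise (chi-square per degree of freedom of at least 3.43), so none was counted as a duplicate.

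In counts simulated from these libraries, all 100 genes changed by 1 on the log2 scale and 90 of 100 changed by 0.5 were recovered for M3 against WT, untreated, with 5% of calls false. For TNF in N108 the numbers were 100 and 92, and for the interaction with N108 99 and 80. Only these genes, all averaging at least 1 CPM, were changed in the simulation, and its libraries carried no GC trend. The data hold such trends and far more genes called between lines, so these rates need not hold for them. Alternatives were DESeq2 1.42.0, its size factors, other low-count filters, only the compared groups, a replicate block, removal of a GC trend, and each library left out in turn. Genes were named by rule: all members by role, and in each comparison up to 10 called members per direction by size. Of the other pathway genes, those called with an absolute log2 fold change of at least 1 in either mutant against WT untreated were named, with NFKBIA; an item the rule also covers is not reported here. Members and lists were chosen with earlier results of these data known. One listed pathway gene had no match by symbol and is not analysed here.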

Additional observations from a re-analysis of the deposited data

Results flagged for a closer look

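The response of ABCC3 to TNF differed between N108 and WT cells by a test of the difference itself (interaction of 0.38 ± 0.085 on the log2 scale, SE, 3 libraries per group, adjusted p = 0.014). ABCC3 averaged 101 CPM with TNF and 94.3 CPM untreated in N108, and 67.4 CPM with TNF and 82.3 CPM untreated in WT. In WT all 3 treated libraries lay below all untreated ones. The interaction was 0.29 with the GC trend removed (adjusted p = 0.11), 0.30 without WT TNF replicate 3 and 0.31 without N108 TNF replicate 2 (adjusted p = 0.047 and 0.046), and over the alternatives its adjusted p ranged from 5.4e-05 to 0.11. The part of these libraries and of the GC trend in the result was not tested.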

How the results depend on the processing

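Over all members, comparisons and alternatives, 4594 values counted as unchanged, 107 lost a call, 81 gained one and none changed direction while called. Unchanged values were called in the same direction, or uncalled in both fits whatever their direction. They include ratios of mean CPM for called members, which have no p-value and were compared by direction alone. The calls that held under every alternative were 15 of 19 in N108 and 17 of 17 in M3 against WT untreated, 17 of 23 and 14 of 22 with TNF, and 5 of 13 for N108 against M3. AKR1B10 (M3 untreated and N108 against M3) and GPX2 (N108 with TNF) are among those held, and had to differ to pass the filter. The count for N108 against M3 was 8 to 12 when 1 library was left out. For TNF in WT it was 1 to 3, in M3 1 to 2 and in N108 1 to 6. The count for TNF in N108 was 2 under DESeq2, under a filter of 1 CPM in 3 libraries, and with the GC trend removed, with or without the replicate block. The interaction with N108 gave 2 members under DESeq2, 4 with no filter, 0 with the GC trend removed and 1 to 7 with 1 library left out, with 7 reached without N108 TNF replicate 3 and 2 without WT TNF replicate 1. The interaction with M3 gave 1 with no filter and 1 with the GC trend removed together with the replicate block. The causes of these shifts were not tested.

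Same-numbered libraries did not deviate together in every pair (correlations of -0.063 to 0.10), so the numbers were not taken as pairs. With the replicate block, 18 members were called in N108 and 17 in M3 against WT untreated, 23 and 22 with TNF, 12 for N108 against M3, 1, 2 and 2 for TNF in N108, M3 and WT, and 1 and 0 for the interactions with N108 and M3. The calls lost were GPX4 (adjusted p = 0.057), AKR1B1 in N108 against M3 (0.058) and SQSTM1 in WT (0.059).

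Genes at trace level limit these data: GPX2, AKR1B10, AKR1C1 and AKR1C2 had 0 to 51 reads per library, and a difference there was detectable only when large.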
